A study of Mus musculus with 12 samples.

Results

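The miR-302 cluster, which also holds miR-367, is a group of 5 microRNA (miRNA) hairpins that lie side by side in the mouse genome. All entries of the deposited count table whose names carry miR-302a to miR-302d or miR-367 were taken, which gave 14 of 1053 entries: 9 mature arms (of 633) and 5 precursors (of 420). A mature arm is the single-stranded miRNA cut from the 5-prime (5p) or 3-prime (3p) side of a hairpin, and a precursor entry is the hairpin as a whole. Of the 14 entries, 12 passed the filter on low counts and were tested, and miR-302c-5p and the precursor mir-367 were not. The filter could be passed through the E8.5 libraries alone, where the cluster was high, so counts and medians over the tested entries are descriptions.

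Small RNA had been read from tdTomato-positive sorted cells of mouse embryos, with 3 libraries at each of the embryonic stages E8.5, E9.5, E10.5 and E11.5 (E, embryonic day). The E8.5 cells were endoderm of genotype Foxa2-CreER, tdtomato+, taken from whole embryos, where a Cre recombinase placed in the Foxa2 locus and induced by tamoxifen turned on tdTomato. The later cells were of genotype Pdx1-Cre, tdtomato+, a transgene active in the pancreatic and duodenal domain, and came from the trunk. The step from E8.5 to E9.5 thus brought another Cre driver and another dissected region along with the later stage, and these cannot be told apart. A number in the library names was also particular to each stage, so a batch of libraries and the stage cannot be told apart either. Per the study's methods, the males of the lineage-tracing crosses were heterozygous for an allele in which eGFP stands in place of mir-302. The sample labels give no mir-302 genotype, so the number of intact copies behind each library is unknown, and its part in the miR-302 counts was not tested. The labels do not say whether libraries of a stage came from separate embryos or litters, so p-values measure only the spread between these libraries, which may be technical.

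The cluster is known from embryonic stem cells and the early embryo, where its miRNAs support pluripotency and rapid cell division and are lost as cells differentiate. A miRNA binds its target mRNAs mainly through its seed, bases 2 to 8 from the 5-prime end, so miRNAs that share a seed are thought to repress shared targets. One primary transcript carries all hairpins of the cluster, which are then cut apart, and usually 1 arm of each hairpin is kept while the other is degraded.

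The 5 hairpins occupied 580 bases of chromosome 3 on the plus strand (RefSeq annotation, GRCm38.p6 assembly), in the order Mir302b (127545228 to 127545301), Mir302c (127545363 to 127545430), Mir302a (127545496 to 127545564), Mir302d (127545624 to 127545689) and Mir367 (127545733 to 127545807). They were 66 to 75 bases long and 43 to 65 bases apart. In the GENCODE annotation the whole group lay within an intron of Larp7, a gene on the minus strand (127536714 to 127553349) that encodes an RNA-binding protein of the 7SK complex. None of the Larp7 exons overlapped a hairpin, and the nearest began 18 bases beyond Mir367. The reads kept by the authors were 17 to 35 or 36 bases long, shorter than any of these hairpins, so the counts of a precursor entry stand for pieces of the hairpin and not for whole precursors.

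RefSeq sequences were matched for 8 of the 9 mature members. They are shown because the seeds sort the arms into groups that the text returns to, with the seed in capitals. The 3p arms read as follows.
miR-302b-3p: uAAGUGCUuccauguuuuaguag
miR-302d-3p: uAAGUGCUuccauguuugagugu
miR-302c-3p: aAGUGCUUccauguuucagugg
miR-367-3p: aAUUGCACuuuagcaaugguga
miR-302b-3p and miR-302d-3p shared the seed AAGUGCU and their first 17 bases. A read of the shortest length allowed, 17 bases, could therefore not tell them apart. miR-302c-3p is annotated with its start 1 base later, which gives the seed AGUGCUU, although 16 bases in a row were the same as in the other 2. miR-367-3p carried AUUGCAC, the seed of the abundant miR-92a-3p.

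The 5p arms were as follows.
miR-302b-5p: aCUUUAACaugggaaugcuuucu
miR-302c-5p: gCUUUAACaugggguuaccugc
miR-302d-5p: aCUUUAACauggaggcacuugcu
miR-302a-5p: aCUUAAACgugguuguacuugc
The b, c and d arms shared the seed CUUUAAC and miR-302a-5p had CUUAAAC. The 8 arms shown were 22 or 23 bases long, so levels of different arms could be set side by side without a correction for length. Sequence-dependent ligation and amplification were not measured, and a difference in level between arms may include them.

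Sequencing depth bears on each later value. The libraries held 53996 to 1103383 counts, and the E9.5 libraries were the smallest at 53996 to 80075 counts. Levels are given in CPM, the counts of an entry per 1e+06 counts of the library, scaled by the TMM method. A count of 0 allowed up to 32.0 to 75.8 CPM at E9.5, where 3 counts are worth that much, against 4.33 to 7.75 CPM at E8.5. The limit was 11.4 to 25.8 CPM in the E10.5 libraries and 2.75 to 6.85 CPM in those of E11.5. Within a library many entries had counts of nearly the same size, at 30.9 to 117 reads depending on the library, and this size is called the second count level below. In bulk samples, fewer cells of a type and less RNA per cell cannot be told apart.

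The cluster was most abundant at E8.5. Its 14 entries together took 6.60% ± 1.71 of all counts there (SD, n = 3), then 0.916% ± 0.487 at E9.5. At E10.5 the share was 0.184% ± 0.0149, and the last stage had 0.0583% ± 0.0324. Of the 101796 counts that the 14 entries held over all libraries, 97318 (95.6%) were from E8.5. The 4 miR-302-3p arms supplied most of them, with 7.05% (95% exact binomial interval 6.98 to 7.12%), 5.87% (5.80 to 5.94%) and 4.05% (4.00 to 4.10%) of the counts of the E8.5 libraries. In the E11.5 libraries the same arms took 0.0462% (0.0399 to 0.0532%), 0.0267% (0.0238 to 0.0300%) and 0.0644% (0.0591 to 0.0701%). Reads were not collapsed to molecules, so intervals and limits of detection cover counting error only.

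miR-302b-3p (mmu-miR-302b-3p in the table), the most abundant member, fell at both of the first steps. It stood at 35426, 30466 and 20018 CPM in the E8.5 libraries (replicates 1 to 3), which put it at rank 2 or 5 of all mature arms. The E9.5 libraries held 4149, 5399 and 3186 CPM, and its rank there was 27 to 56. By E10.5 it was down to 190.5, 1341 and 557 CPM, and the E11.5 libraries held 208, 209.8 and 371 CPM. The libraries of E8.5, E9.5 and E10.5 did not overlap from one stage to the next, whereas those of E10.5 and E11.5 did.

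miR-302d-3p (mmu-miR-302d-3p), which shares its seed, came next in level. Its E8.5 libraries lay at 16124, 15906 and 8416 CPM, and its E9.5 libraries at 1806, 3468 and 986 CPM. It was at 293, 369.5 and 1016 CPM at E10.5. At E11.5 replicates 1 and 3 held 219 and 248 CPM and replicate 2 held 40.3 CPM, so the lowest library there was the deepest of all 12. Its E9.5 libraries lay below those of E8.5, those of E9.5 and E10.5 overlapped (986 CPM was the lowest of E9.5 and 1016 CPM the highest of E10.5), and all E11.5 libraries lay below all E10.5 libraries.

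miR-302a-3p (mmu-miR-302a-3p) was lower in all libraries at 2 separate steps. It stood at 10081, 11083 and 5289 CPM at E8.5 and at 244, 918 and 632 CPM at E9.5. It stayed at 419, 189 and 210.3 CPM at E10.5, where the libraries overlapped those of E9.5. At E11.5 it was at 11.4, 19.2 and 27.7 CPM, which were 5, 21 and 23 counts, and all of these lay below all E10.5 libraries.

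miR-302c-3p (mmu-miR-302c-3p) was the lowest of the 4 miR-302-3p arms in each of the 12 libraries except E10.5 replicate 1. It held 1586, 1077 and 973 CPM at E8.5. After E8.5 its level came from single libraries. At E9.5 replicate 2 had 58 counts (619 CPM) while replicates 1 and 3 had 2 and 1, and at E10.5 replicate 1 had 59 counts (225 CPM) while replicates 2 and 3 had 1 and 3. These 2 high counts were at 0.963 and 0.514 times the second count level of their library. All 3 libraries of E11.5 held 1 to 5 counts.

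**Figure D1:**
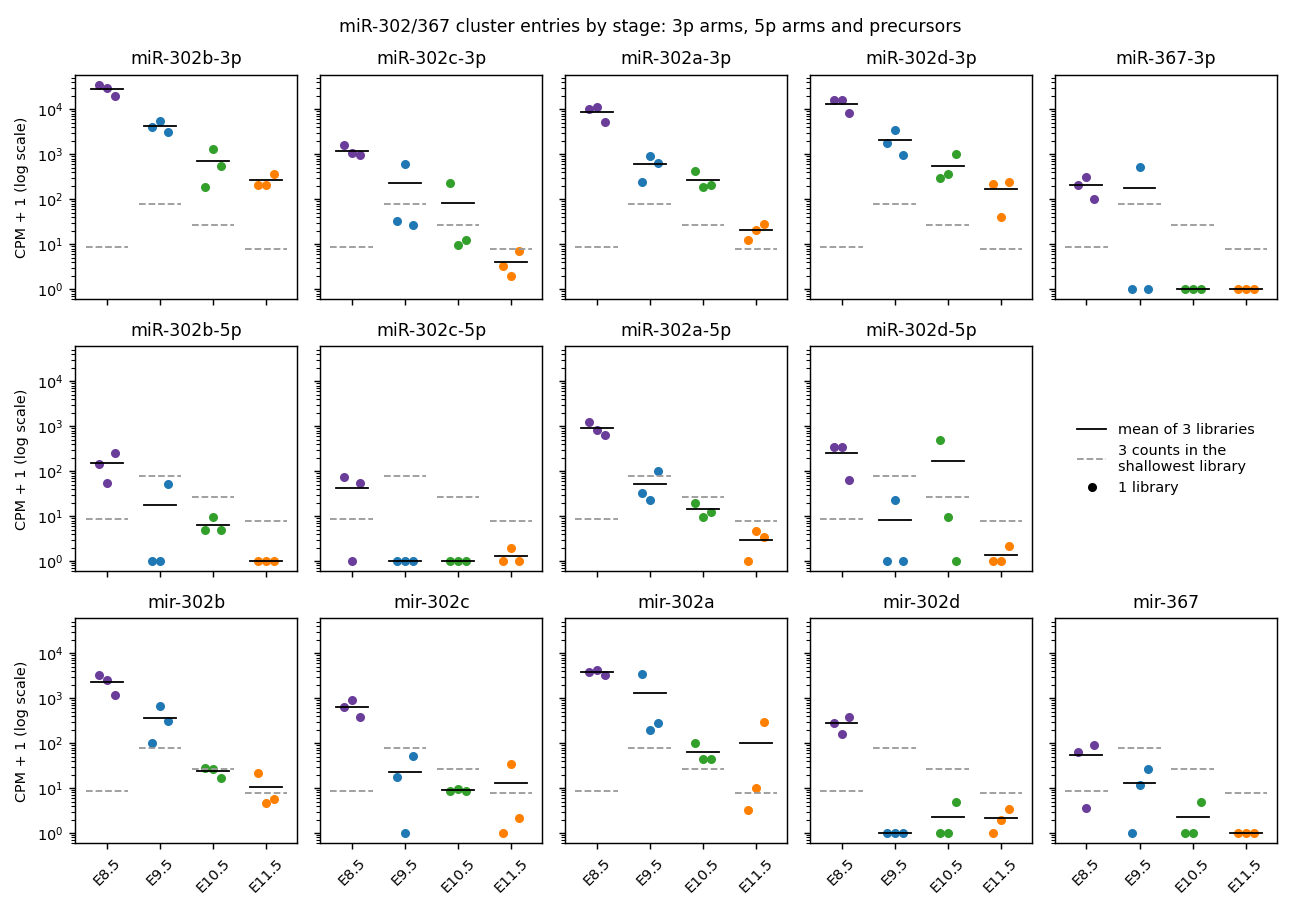
CPM + 1 (log scale) of the 14 cluster entries by stage, with 3p arms in the top row, 5p arms in the middle and precursors at the bottom. Each point is 1 library, black lines are means of 3 libraries and grey dashed lines are the level of 3 counts in the shallowest library of the stage. miR-302b-3p falls from 20018 to 35426 CPM at E8.5 to 208 to 371 CPM at E11.5, while most 5p and precursor points after E8.5 lie near or below the dashed lines.

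The first comparison set Pdx1-Cre cells of E9.5 against E8.5 endoderm, and asked how the cluster differed when pancreatic progenitors appear. Of the members, 3 fell, all of them 3p arms. The mean of miR-302a-3p fell from 8818 ± 3097 to 598 ± 338 CPM (SD, n = 3), a log2 fold change of -3.88 (SE 0.72, edgeR quasi-likelihood test with Benjamini-Hochberg adjustment over 571 entries, adjusted p = 0.000860). miR-302b-3p changed from 28637 ± 7865 to 4245 ± 1110 CPM (-2.76, SE 0.54, adjusted p = 0.00151 by the edgeR test). miR-302d-3p changed from 13482 ± 4389 to 2087 ± 1264 CPM (-2.69, SE 0.69, adjusted p = 0.0197 by the edgeR test). In all 3 every E9.5 library lay below every E8.5 library. miR-302d-3p no longer passed when E8.5 replicate 1 (-2.52) or replicate 2 (-2.63) was left out. Of all entries tested, 5.6% were called in either direction and 1.58% were called lower, against 3 of the 12 members tested, all lower. An unadjusted p under 0.05 was reached by 7 of the 12 members and by 20% of all entries.

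No other member was called at this step, with fitted changes that were all negative. The median over the 12 members was -3.03 on the log2 scale, and that over all 571 entries was -0.84. Entries at 0 in a whole stage have no bounded fit, and with them at the limit of 3 counts, or left out where both stages were below it, the members' medians were -2.73 here and -1.86, -1.56 and -4.17 in the later comparisons. For 10 of the 12 every E9.5 library lay below every E8.5 library, as it did for 27.5% of all entries, and the exceptions were miR-367-3p and the precursor mir-302a. Among the 10, miR-302b-5p and miR-302d-5p had their lowest E8.5 library at 54.2 and 62.0 CPM. Both values were under the limit of 75.8 CPM in E9.5 replicate 3, so depth does not allow these 2 to be told apart there. miR-302c-3p had -2.40 (SE 1.41), miR-302a-5p had -4.18 (SE 1.48) and mir-302b had -2.70 (SE 1.04), with adjusted p of 0.307, 0.112 and 0.156 by the edgeR test. The precursor mir-302d had 165, 60 and 264 counts at E8.5 and 0 in all 3 E9.5 libraries. Its mean of 273 CPM was at least 5.23-fold lower at E9.5 when each E9.5 library was set to its limit of 3 counts.

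The second comparison, E10.5 against E9.5, was between cells of the same driver and region. miR-302b-3p fell again, from 4245 ± 1110 to 696 ± 588 CPM (-2.62, SE 0.54, adjusted p = 0.00716 by the edgeR test). Its precursor mir-302b had 6, 63 and 12 counts at E9.5 and 7, 3 and 4 at E10.5, in libraries of greater depth, and fell from 358 ± 291 to 22.7 ± 6.16 CPM (-3.98, SE 1.13, adjusted p = 0.0450 by the edgeR test). Both had no overlap of libraries. The E10.5 mean of miR-302b-3p rested on replicate 2 (1341 CPM), without which its change was -3.52 (adjusted p = 0.00104 by the edgeR test). These were 2 of 12 members, against 4.38% of all entries called and 2.8% called lower. The call of mir-302b was lost in 7 of the 12 fits that left out 1 library (E8.5 replicates 1, 2 and 3, E9.5 replicate 2, and E10.5 replicates 1, 2 and 3), over all of which it ran from -4.38 to -3.33, with the last value from the fit without E9.5 replicate 2. In a fit of the 9 Pdx1-Cre libraries alone, neither entry passed, with -2.89 (adjusted p = 0.0679 by the edgeR test) for miR-302b-3p and -4.34 (adjusted p = 0.236) for mir-302b. Over the same step the sum of 3 muscle miRNAs went from 5288 to 26850 CPM at E9.5 to 266 to 3517 CPM at E10.5, and the part of such markers in these calls was not tested.

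miR-302d-3p had -1.90 (SE 0.67, adjusted p = 0.116 by the edgeR test) and miR-302a-3p had -1.13 (SE 0.66, adjusted p = 0.349) at this step. The precursor mir-302a had -4.41 (SE 1.36, adjusted p = 0.0672 by the edgeR test), and every E10.5 library lay below every E9.5 library for it. Its E9.5 level rested on replicate 1, with 217 counts against 18 and 11. The median over the 12 members was -1.67 and that over all entries was 0.17. In CPM, 4 of the 12 members had every E10.5 library below every E9.5 library, against 7.01% of all entries. The counts of all 4 overlapped between the stages, so their CPM were apart only after scaling for depth. One of the 4 was miR-302a-5p, with 2 to 4 counts at E9.5 and 1 to 5 at E10.5. At an unadjusted p under 0.05 there were 5 members and 18.2% of all entries.

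Between E10.5 and E11.5 there was 1 call among the members. miR-302a-3p fell from 273 ± 127 to 19.4 ± 8.14 CPM (-3.78, SE 0.72, adjusted p = 0.00863 by the edgeR test), where 0.35% of all entries were called. The call was lost without E8.5 replicate 2 (-3.72) and without E11.5 replicate 1 (-3.43), and in a fit of the 9 Pdx1-Cre libraries alone (-3.84, adjusted p = 0.535 by the edgeR test). miR-302b-3p had -1.40 (SE 0.52) and miR-302d-3p had -1.73 (SE 0.67), with adjusted p of 0.326 and 0.368 by the edgeR test. Of the 12 members, 5 had every E11.5 library below every E10.5 library, against 3.68% of all entries, and 5 had an unadjusted p under 0.05, against 10.7% of all entries. The median of the members was -1.56 and that of all entries was 0.07.

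Over the whole Pdx1-Cre course, E11.5 against E9.5, 5 of 12 members fell, where 4.55% of all entries were called and 3.33% were called lower. This comparison shares its libraries with the 2 before it and is not independent of them. By the edgeR quasi-likelihood test, miR-302b-3p had -4.01 (SE 0.57) with an adjusted p of 8.66e-05. miR-302a-3p had -4.91 (SE 0.76) and miR-302d-3p had -3.63 (SE 0.72), at an adjusted p of 0.000197 and 0.00251 by the edgeR test. The edgeR test also called mir-302b (-5.24, SE 1.18, adjusted p = 0.00826) and miR-302c-3p (-6.09, SE 1.69, adjusted p = 0.0363). All 5 had every E11.5 library below every E9.5 library, and with miR-302a-5p this held for 6 of 12 members, against 5.95% of all entries. The counts of all 6 overlapped between the stages, so their CPM were apart only after scaling for the lower depth at E9.5. miR-302a-5p had 2 to 4 counts at E9.5 and 0 to 4 at E11.5. The called entries with the fewest counts were miR-302c-3p (1 to 58 and 1 to 5) and mir-302b (6 to 63 and 4 to 9). At an unadjusted p under 0.05 there were 9 members and 18.4% of all entries. The median was -4.17 for the members and 0.66 for all entries. The miR-302c-3p call was lost in 7 of the 12 fits that left out 1 library (E8.5 replicates 1, 2 and 3, E9.5 replicate 2, and E11.5 replicates 1, 2 and 3), and without E9.5 replicate 2, which held its 58 counts, the change was -3.30, while without E11.5 replicate 3 it was -6.93. The call of mir-302b was lost without E11.5 replicate 2 (-4.85) or replicate 3 (-4.91), and its change was -4.60 without E9.5 replicate 2 and -6.16 without E11.5 replicate 1. In the fit of the Pdx1-Cre libraries alone only the call of miR-302b-3p stayed (-4.44, adjusted p = 0.00847 by the edgeR test).

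**Figure D2:**
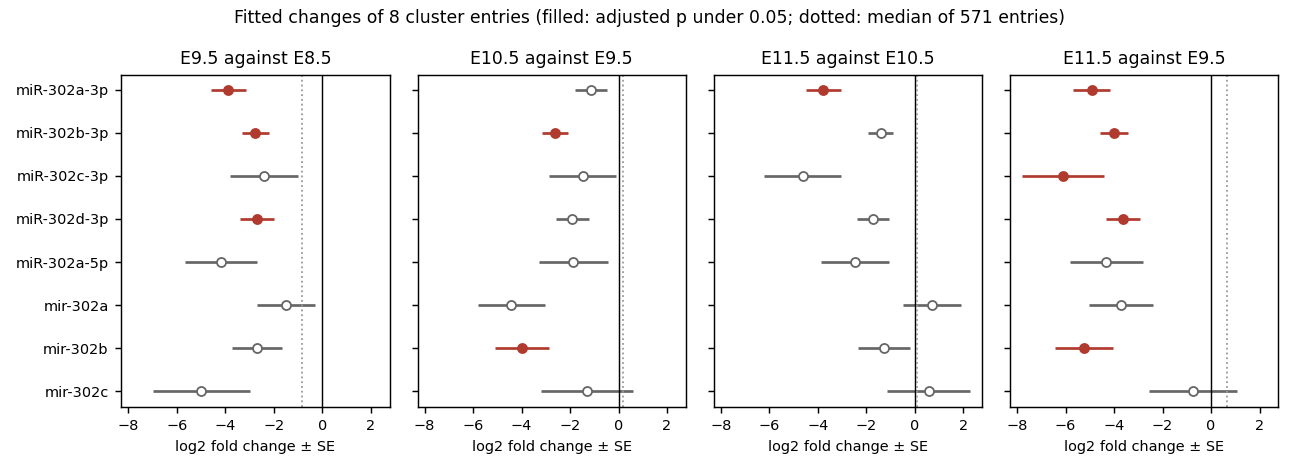
Fitted log2 fold changes (± SE) of 8 cluster entries in the 4 comparisons. Filled red points have an adjusted p under 0.05, the solid line marks 0 and the dotted line is the median of the 571 entries. miR-302a-3p is filled at the first and last of the 3 steps and miR-302b-3p at the first and second, and both are filled in E11.5 against E9.5.

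The size of the drop in each arm was compared by the ratio of mean levels, as a description. From E8.5 to E11.5 the mean CPM of miR-302b-3p was 109 times lower and that of miR-302d-3p was 79.7 times lower. miR-302a-3p was 453 times lower and miR-302c-3p was 395 times lower, the latter with a last mean of 3.07 CPM from 7 counts.

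Counts were also summed by kind of entry. The miR-302-3p sum went from 52875 ± 14936 CPM at E8.5 to 7250 ± 3071, 1598 ± 416 and 447 ± 191 CPM, with fitted steps of -2.87 (SE 0.40), -2.18 (SE 0.39) and -1.84 (SE 0.39) on the log2 scale. The libraries of adjacent stages did not overlap at any of the 3 steps. The sum of 5p arms went from 1359 ± 391 CPM to 76.1 ± 66.0, 187 ± 288 and 2.69 ± 2.38 CPM, and the E10.5 mean rested on replicate 1. The precursor sum went from 7194 ± 1568 CPM to 1729 ± 1650, 94.2 ± 33.3 and 122 ± 153 CPM, with fitted steps of -2.06 (SE 0.84), -4.19 (SE 0.93) and 0.37 (SE 0.82). Its high E11.5 value was that of replicate 3, with 243 counts of mir-302a. The sums are given as descriptions, with no test.

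The composition of the 4 miR-302-3p arms was compared within libraries, which needs no scaling. miR-302b-3p took 55.3% ± 2.90 of their counts at E8.5 (SD, n = 3), miR-302d-3p 25.6% ± 1.46, miR-302a-3p 16.7% ± 1.96 and miR-302c-3p 2.38% ± 0.494. This order (b, d, a, c) held in 9 of 12 libraries. miR-302b-3p and miR-302d-3p exchanged places in E10.5 replicate 3 and E11.5 replicate 1, and in E10.5 replicate 1 miR-302a-3p led with 37.2% of 296 counts (95% exact binomial interval 31.6 to 42.9%). The order of abundance did not follow the order of the hairpins on the chromosome, where c and a lie between b and d.

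At E8.5 the libraries of miR-302b-3p did not overlap those of miR-302d-3p, and miR-302a-3p did not overlap miR-302c-3p, whereas the middle neighbours d and a overlapped. At E9.5 only the middle neighbours were apart. At E10.5 and E11.5 the libraries of b and d overlapped, and at E10.5 all neighbours did. At E11.5 d lay above a, and a above c, with no overlap.

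The share of miR-302a-3p had the lowest p-values of the 4 arms. It was 16.7% ± 1.96 at E8.5, 8.61% ± 4.59 at E9.5, 19.6% ± 15.2 by E10.5 and then 4.65% ± 2.29 (n = 3 each). Without E10.5 replicate 1 its share at E10.5 lay at 9.91% and 11.7%. An exact permutation test over the stages gave p = 0.126 (369600 assignments, no direction, adjusted p = 0.502 over 8 tests of shares), which missed the threshold. All E8.5 libraries (15.2 to 18.9%) lay above all E9.5 (3.92 to 13.1%) and E11.5 libraries (2.59 to 7.12%). Under the alternatives to this test the adjusted p of the exact permutation ran from 0.0935 (without E10.5 replicate 1) to 0.864. The other 3 shares gave exact permutation p-values of 0.374, 0.814 and 0.847 for b, c and d (adjusted p = 0.747, 0.847 and 0.847). Within the 3 Pdx1-Cre stages the exact p-values were 0.1 for a, 0.343 for b, 0.65 for c and 0.839 for d (1680 assignments), none under 0.05 after adjustment. The smallest p these designs allow is 6.49e-05 with 12 libraries and 0.00357 with 9.

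**Figure D3:**
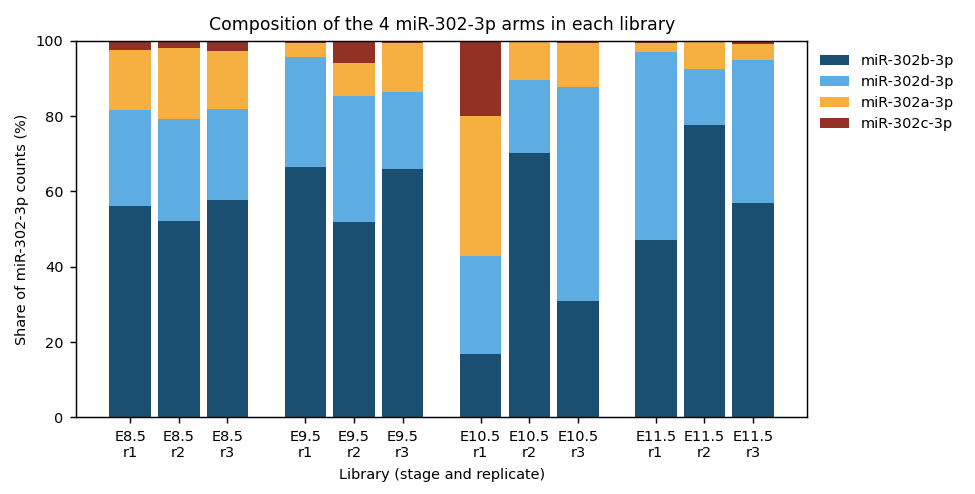
Share (%) of each miR-302-3p arm among the counts of the 4 arms, in each of the 12 libraries. The 3 E8.5 bars are alike, with miR-302b-3p at 52.0 to 57.7%, while the E10.5 bars differ among themselves, with miR-302b-3p at 16.9 to 70.3%.

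The 3p arm was the main product of each miR-302 hairpin. It had more counts than the 5p arm in 12 of 12 libraries for a and b and in 11 of 12 for c and d. The exceptions were miR-302d in E10.5 replicate 1 (77 counts of the 3p arm and 131 of the 5p arm) and miR-302c in E11.5 replicate 2 (1 count each). At E8.5 the 5p arm made up 9.51% ± 2.13 of both arms for miR-302a (7.06 to 10.9%, n = 3), 0.603% ± 0.550 for b, 3.19% ± 2.79 for c and 1.65% ± 0.796 for d. The lowest share of miR-302a was above the highest of the other 3 hairpins, which was 5.20%.

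After E8.5 the 5p arms were close to absent at this depth. miR-302a-5p had 713, 326 and 435 counts at E8.5 and 0 to 5 counts in each later library. miR-302b-5p had 84, 21 and 172 counts at E8.5 and at most 2 later, and miR-302c-5p had 42, 0 and 37 counts and then a single count. miR-302d-5p had 196, 136 and 43 counts at E8.5, and later 131 counts in E10.5 replicate 1 and at most 2 elsewhere. That count of 131 was 1.14 times the second count level of its library. The log2 ratio of 3p to 5p counts (pseudocount 0.5) was 3.28 ± 0.38 for miR-302a at E8.5 and 2.98 ± 0.64 at E11.5 (n = 3). For miR-302d it was 6.05 ± 0.89 at E8.5, 4.38 ± 4.91 at E10.5 and then 7.06 ± 0.56. No such ratio passed the test over the stages (exact permutation test, p from 0.214 to 0.644 over 8 tests, adjusted p from 0.637 to 0.644). The 5p counts behind the later ratios were too few to show a change of arm use.

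miR-367-3p, which closes the cluster, was far below the miR-302-3p arms. It had 121, 119 and 68 counts at E8.5 (209, 307 and 98.1 CPM), 49 counts in E9.5 replicate 2 and 0 in the other 8 libraries. miR-302c-3p, the next lowest 3p arm, had more counts in 12 of 12 libraries. The fitted change of miR-367-3p at the first step was -0.21 (SE 2.04, adjusted p = 0.960 by the edgeR test), with 2 of the 3 E9.5 libraries at 0.

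Precursor entries were unequal among the hairpins. mir-302a led at E8.5 with 2250, 1649 and 2236 counts (3788 ± 523 CPM), ahead of mir-302b with 1925, 979 and 800 counts (2334 ± 1096 CPM). mir-302c had 375, 351 and 262 counts, mir-302d 165, 60 and 264, and mir-367 37, 1 and 63. Among all reads of a hairpin at E8.5, the precursor entry took 29.0% ± 5.41 for mir-302a and 33.6% ± 10.54 for mir-302c (n = 3), against 7.19% ± 1.62 for mir-302b and 2.31% ± 1.76 for mir-302d. The lowest library of mir-302a (25.5%) and of mir-302c (26.9%) lay above the highest of mir-302b (8.53%) and of mir-302d (4.30%). For mir-367 the share ran from 0.833% to 48.1%. The hairpin with the most precursor reads was thus not the one with the most mature reads. How reads were divided between mature and precursor entries is not given in the sources used here.

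After E8.5 the precursor counts were uneven. mir-302a had 217 counts in E9.5 replicate 1 and 243 in E11.5 replicate 3, which were 2.67 and 2.99 times the second count level of those libraries, and 1 to 26 counts in the other 7. mir-302c had 37 counts in E11.5 replicate 2 and at most 2 in the other 8. In those 2 libraries with many mir-302a reads, the mature miR-302a-3p had 15 and 23 counts. The log2 ratio of all mature to all precursor counts of the cluster was 2.90 ± 0.11 at E8.5, 2.44 ± 1.48 at E9.5, 4.25 ± 0.56 in the E10.5 libraries and 2.61 ± 1.54 in those of E11.5 (n = 3 each). It did not pass the test over the stages (exact permutation p = 0.234 over 4 stages and 0.225 over 3, adjusted p = 0.234 for both).

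Of the 126 values of the 14 entries in the 9 Pdx1-Cre libraries, 41 were 0, 45 were 1 to 9 counts and 40 were 10 counts or more. Only 18 reached the second count level of their library, and 14 of these belonged to miR-302a-3p, miR-302b-3p or miR-302d-3p. miR-302b-3p reached it in 8 of 9 libraries, all but E10.5 replicate 1 (50 counts), miR-302d-3p in 5 and miR-302a-3p in 1. At E8.5 miR-302b-3p was at 196 to 311 times that level. The other 4 were those of mir-302a and miR-302d-5p given above and the 63 counts of mir-302b in E9.5 replicate 2 (1.05 times the level). What the second count level stands for was not tested.

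**Figure D4:**
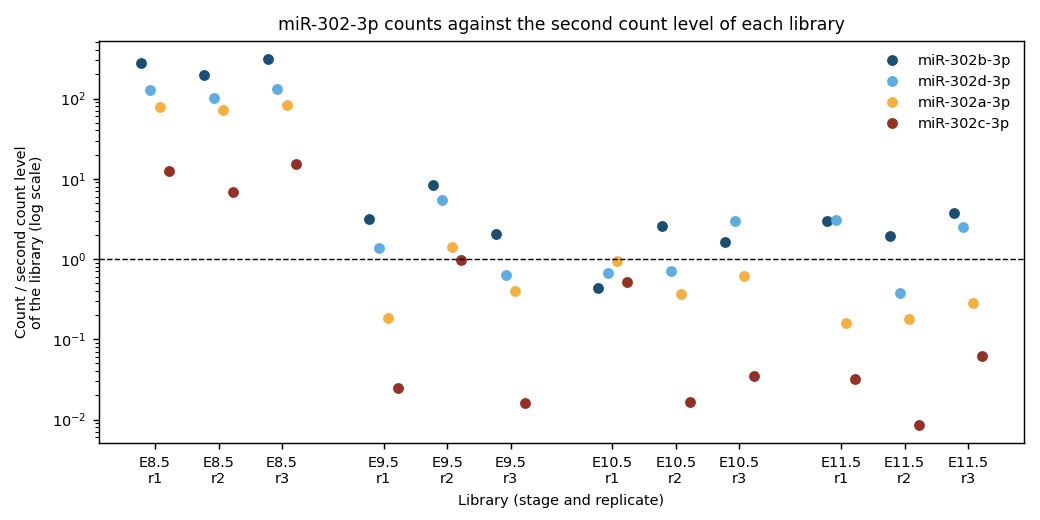
Counts of the 4 miR-302-3p arms divided by the second count level of the library (log scale), with the dashed line at 1. All E8.5 points lie between 6.92 and 311, while after E8.5 miR-302b-3p lies between 0.435 and 8.40 and miR-302c-3p stays under 1.

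The seed AAGUGCU of miR-302b-3p and miR-302d-3p is shared with 3 entries of the miR-290 cluster, miR-291a-3p, miR-294-3p and miR-295-3p, which are the counterparts of the cluster in embryonic stem cells. Shares of a seed cover the 541 mature entries with a RefSeq sequence, and miR-302a-3p is not among them. Its seed was therefore not read here, and its 3668 to 5847 counts in the E8.5 libraries enter none of these shares. The shares would be lower if it had the same seed. On that basis the arms miR-302b-3p and miR-302d-3p supplied 94.6% ± 2.15 of the counts with this seed at E8.5, 81.2% ± 19.5 at E9.5, 98.5% ± 0.920 in the next stage and 85.8% ± 14.96 at E11.5 (n = 3 each). The low values were 58.7% in E9.5 replicate 1 and 70.2% in E11.5 replicate 2. miR-294-3p made up most of the rest there, with up to 257 counts in a library at E9.5 and up to 113 at E11.5. It differed between E10.5 and E9.5 (-7.26, SE 1.59, adjusted p = 0.00853 by the edgeR test), with 1 to 3 counts in the E10.5 libraries. Its E9.5 level (1701 ± 2171 CPM, 6 to 257 counts) rested mainly on replicate 1, and a fit without that library is not given for it. miR-291a-3p and miR-295-3p were at 286 ± 57.2 and 692 ± 85.2 CPM at E8.5 and had at most 5 counts in each later library, and neither was called at any step. A further 6 mature entries hold AAGUGC within their first 9 bases under another seed, AAAGUGC (miR-17-5p, miR-20a-5p, miR-20b-5p, miR-93-5p, miR-106a-5p and miR-106b-5p). All 6 were tested and 0 were called in any of the 4 comparisons by the edgeR test, DESeq2 or limma voom. Of all entries, the edgeR test called 5.6, 4.38, 0.35 and 4.55%. DESeq2 called 79 of 382, 68 of 402, 8 of 531 and 64 of 460, and limma voom called 17, 1, 3 and 6 of 571. With 6 entries, a count of 0 does not set them apart from all entries. An unadjusted edgeR p under 0.05 was reached by 3 of the 6 at the first step, 1 at the second and 0 in the other 2. Of all entries, 20, 18.2, 10.7 and 18.4% reached it. The median change of the 6 was -2.69 from E8.5 to E9.5, where that of all entries was -0.84, and -0.23, 0.22 and 0.19 in the other 3.

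miR-367-3p gave a very small part of its seed. Of the counts with AUUGCAC it took 0.0811% ± 0.0354 at E8.5 (n = 3), and miR-92a-3p led that group with 229447 ± 27042 CPM. After E8.5 it was seen in E9.5 replicate 2 alone, with 49 of 6958 counts (0.704%, 95% exact binomial interval 0.521 to 0.930%).

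The entries most like the miR-302-3p sum were sought by Pearson's r of log2 CPM among 369 other mature entries, as a description. The points share the libraries and their depth. Over all 12 libraries the leaders were miR-291a-5p (r = 0.949), miR-290a-5p (0.928), miR-293-5p (0.927), miR-295-3p (0.919) and miR-92a-2-5p (0.912), and 4 of these 5 are of the miR-290 cluster. Over the 9 Pdx1-Cre libraries they were miR-291a-5p (0.905), miR-23a-3p (0.892), miR-292a-5p (0.859), let-7b-5p (0.833) and miR-290a-5p (0.824). miR-291a-5p and miR-290a-5p rested on at most 5 and 45 counts in each of these 9 libraries. Among the members, r with miR-302b-3p over 12 libraries was 0.942 for miR-302d-3p, 0.902 for miR-302a-3p and 0.799 for miR-302c-3p. Over the 9 Pdx1-Cre libraries it was 0.836, 0.707 and 0.460.

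Marker miRNAs moved along with the stages, and their part in the cluster values was not tested. The 8 miRNAs of the miR-290 cluster, which mark pluripotent cells, summed to 18599 to 19729 CPM in E8.5 libraries and 4940 to 12562 CPM in E9.5 libraries. They were down to 602 to 1332 CPM by E10.5 and 135 to 568 CPM in the last stage. The 5 epithelial miRNAs of the miR-200 family stood at 9003 to 11027 CPM at E8.5 and 23427 to 39004 at E11.5, and miR-375-3p with miR-7a-5p stood at 22920 to 27415 CPM at E8.5 and 73090 to 111403 at E11.5. The liver miRNA miR-122-5p was at 461 to 591 CPM at E8.5 and at 38757 to 91433 at E9.5. The 3 muscle miRNAs were at 6270 to 26465 CPM in E8.5 libraries, still at 5288 to 26850 CPM in those of E9.5, and at 266 to 3517 CPM and 280.3 to 1713 CPM in the last 2 stages. The 4 mesenchymal ones were at 6697 to 13131 CPM in E8.5 libraries and 1387 to 4955 CPM in E9.5 libraries, then at 3377 to 11084 CPM and 3631 to 7614 CPM. The 2 endothelial miRNAs summed to 1821 to 2274 CPM at E8.5 and 32.5 to 405 at E9.5. Of the leukocyte, erythroid and neural lists, with 2 of 3, 2 of 4 and 3 of 3 entries in the table, the summed levels reached at most 2655, 835 and 506.2 CPM in any library. The leukocyte sum had its highest value at E9.5 and was 0 in at least 1 library of each other stage.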

How the data were processed

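The authors deposited raw counts of reads per miRNA entry for 12 libraries in 1 table, not normalised. Per the study's methods, reads were trimmed of the adapter and 4 random bases, kept by length, aligned to mm10 with STAR and counted with COMPSRA (the submitters' processing notes also name GRCm39). The random bases were not used to count molecules.

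Stages were compared by edgeR 4.0.16 (quasi-likelihood test, R 4.3.3, TMM factors 0.733 to 1.17, filterByExpr with minimum count 10 and minimum total 15, prior count 0.125). The fit held the 12 libraries together, with 1 term for each stage, and 571 entries were tested and adjusted together by the Benjamini-Hochberg method. An entry was called at an adjusted p under 0.05. The SE was the log2 fold change divided by the square root of F. CPM used all counts of a library. Shares and ratios were tested in Python 3.11.15 by exact permutation of stage labels, with the sum of squares between stages as the statistic. The second count level was the highest density of entries per log10 count at 10 counts or more (Gaussian kernel, width 0.1). Both tests were tested on simulated data. DESeq2 1.42.0, limma voom (limma 3.58.1), other scalings, filters and left-out libraries were alternatives.

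All members were named, with the 5 mature entries most like their 3p sum over 12 and over 9 libraries, entries of the same seed and called entries with AAGUGC near the start. The seed of miR-302b-3p was used for this rule in place of that of miR-302a-3p. Seeds could be read for 541 of 633 mature entries. Members and lists were chosen with earlier results of these data known. Numbers of replicates did not pair libraries (18 pairs, correlation of deviations -0.15 to 0.11).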

Additional observations from a re-analysis of the deposited data

How the results depend on the processing

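The members called lower stayed lower in all 253 values that the refits gave for them (log2 fold change below 0), and 205 of these kept the call. These members were picked by the main fit and the refits used the same libraries. The sign was thus close to fixed in advance and is no separate evidence of direction. Settings that did not test a member gave no value for it. Of the 12 settings other than left-out libraries, 9 gave a value for mir-302b at E10.5 against E9.5. The same number did so for miR-302c-3p at E11.5 against E9.5. Rescaling moved the median of all entries at E9.5 against E8.5 from -0.84 to -0.21 (RLE) and -1.10 (library size alone), and at E10.5 against E9.5 from 0.17 to -0.29 (RLE). These shifts were smaller than the changes of the members called, and the call of miR-302d-3p there was lost under RLE (-2.08) and limma voom (-2.58), as was that of miR-302b-3p under limma voom. Counts of members called (3, 2, 1 and 5 in the order of the text) were 5, 5 and 2 with DESeq2 in the first 3 comparisons. Of all entries, DESeq2 called 79 of 382, 68 of 402 and 8 of 531 there. limma voom called 0 members in the last 3, where 3, 2 and 9 had an unadjusted p under 0.05. Of all 571 entries it called only 1, 3 and 6. Shares of all entries at an unadjusted p were not computed for the alternatives, so the unadjusted counts of members have no background here. At E10.5 against E9.5 the count of members was 4 with no filter, 1 with mature arms alone and 1 with each library divided by its second count level. Over all entries these settings called 50 of 1053, 24 of 374 and 17 of 98. The count of members was 0 by the edgeR test with only the stages compared or only the Pdx1-Cre libraries, where 2 and 4 had an unadjusted p under 0.05. Calls over all entries were 11 of 252 and 13 of 421. At E11.5 against E10.5 the edgeR test called 0 members under 4 settings. These were counts under 10 set to 0, divided counts, only the stages compared and the Pdx1-Cre libraries (unadjusted 5, 2, 0 and 1). In the same order, calls over all entries were 0 of 554, 7 of 98, 4 of 403 and 0 of 421. The first and last of these settings thus called no entry of any kind. At E11.5 against E9.5 the count of members was 2 with divided counts and 1 with only the stages compared or the Pdx1-Cre libraries. Over all entries there were 18 of 98, 10 of 360 and 10 of 421 calls. The cause was not tested. Leaving out 1 library gave 2 to 4, 1 to 4, 0 to 1 and 3 to 7 calls of members. Over the 623 to 701 entries tested it gave 21 to 44, 7 to 42, 1 to 5 and 17 to 38.

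The sums are descriptions, and their log2 changes under other settings are given without a call. The 3p sum had -2.76, -2.29, -1.90 and -4.20 with limma voom. At E11.5 against E10.5 it had -1.77 with library size alone, -1.78 without mir-6236 and mir-6240, -1.72 with counts under 10 set to 0, -1.95 with only the stages compared, -1.84 with the Pdx1-Cre libraries and -2.17 to -1.62 without 1 library. The 5p sum had -3.47 at the first step, -6.11 at E11.5 against E10.5 and -5.45 at E11.5 against E9.5 with DESeq2. Without 1 library it ran from -2.002 to 2.26 at E10.5 against E9.5, with the sign turned without E10.5 replicate 1, and from -6.36 to -2.72 at E11.5 against E10.5. With counts under 10 set to 0 it had no value at E11.5 against E9.5, where no 5p counts were left. For E10.5 and then E11.5 against E9.5, the precursor sum had -3.80 and -4.15 with limma voom, -4.92 and -3.54 with counts under 10 set to 0, -6.03 and -3.73 with divided counts, -4.45 and -4.06 with only the stages compared, and -4.37 and -3.98 with the Pdx1-Cre libraries. It had -2.60 at E9.5 against E8.5 with divided counts, and its sign turned at E11.5 against E10.5 with limma voom (-0.35) and without E11.5 replicate 3 (-1.40). Without 1 library it ran from -3.30 (without E9.5 replicate 1) to -1.52, -4.65 to -2.94, -1.40 to 0.87 and -5.59 to -2.54 in the 4 comparisons.

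The replicate number was also used as a block, although it did not pair the libraries (1 of 18 correlations over 0.1, and 4 of 12 libraries best with their own number). With it, 1 member was called at E10.5 against E9.5 (unadjusted 4), against 22 of all 571 entries, and mir-302b (-4.05) was not. miR-302c-3p was lost at E11.5 against E9.5 (-5.74), and no other call of a member, share or ratio changed with the block.

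None of the shares and ratios passed the main test. The changes from first to last stage that turned sign or passed under a setting were as follows, and the share of miR-302a-3p was not among them. The change in the share of miR-302b-3p within Pdx1-Cre stages (-0.947 percentage points) was 4.05 with divided counts. With counts under 10 set to 0, the change of the 3p to 5p ratio was 0.39 for a over 4 stages and -0.45 for b and -0.23 for d over 3, and that of mature to precursor counts was 1.21. With pseudocount 1 it was -0.22 for b over 4 stages and -0.036 for d over 3. With divided counts it was -3.20, -4.65, -3.45 and -3.79 for a to d over 4 stages, all past the threshold. Over 3 stages it was -0.31 for b and -0.34 for d. The divided 5p counts were 0 in nearly all later libraries, so the ratio there followed the 3p counts alone and says nothing of arm use. Without 1 library the share of b changed by -3.27 to 12.0 points over 4 stages and -9.49 to 5.74 over 3, that of c by -2.64 to 0.0703 and that of d by -1.12 to 16.3 over 3. The 3p to 5p ratio then changed by -0.53 to 0.071 (a) and 0.74 to 1.52 (d) over 4 stages, past the threshold for d without E10.5 replicate 3, and by -0.89 to 0.42 (a), -0.95 to 1.21 (b) and -0.36 to 0.39 (d) over 3. The mature to precursor ratio changed by -1.08 to 0.46 over 4 stages and -0.65 to 0.92 over 3. Depth limits the values after E8.5, of which 41 of 126 were 0 and 45 were 1 to 9 counts. The E11.5 against E10.5 call of miR-302a-3p, at 5, 21 and 23 counts in the E11.5 libraries, was lost with counts under 10 set to 0 (-3.92) and with divided counts (-3.67).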
